A study of Danio rerio with 6 samples.

Results

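The genes described here are the 6 calmodulin genes and 4 genes of calcium/calmodulin-dependent protein kinase II (CaMKII) of the zebrafish, 10 of 32520 genes in the deposited tables. They were chosen as gene families, with earlier results of these data known, and were found through Ensembl gene identifiers, with the chromosome deciding between paralogs where the name table gave only a family symbol. All 10 were matched and all 10 passed the filter on low values. Whole larvae, untreated and 5 days old counted from fertilization, gave the RNA, and each sample pools 30 of them. The labels put 3 samples in the genotype (stim2a;stim2b)+/+, wild type at both genes, and 3 in the genotype (stim2a;stim2b)-/-, homozygous mutant at both. The study asked which genes differ between these genotypes.

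Calmodulin is a small calcium-binding protein of nearly all cells. It changes shape when cytosolic calcium rises and then binds and switches on many enzymes, and in vertebrates several separate genes encode an identical calmodulin protein. CaMKII is a ring-shaped kinase that calcium-loaded calmodulin activates and that can keep itself active by phosphorylating its own subunits. It is abundant at synapses, where it acts in synaptic plasticity, and other forms act in heart and muscle. The stim2a and stim2b genes encode STIM2 proteins, which sense calcium in the endoplasmic reticulum and open ORAI channels of the plasma membrane, a source of the cytosolic calcium that calmodulin reads.

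The values are TPM, a transcript abundance scaled for gene length and to the same total in every library, so that levels can be compared between genes. They keep no absolute depth. The ratio of coverage to FPKM, a measure of relative depth, lay between 4.64 and 5.93 over the 6 libraries. The RNA of the targeted genes went against the labels: replicates 1, 2 and 3 labelled +/+ held 0.329, 0.252 and 0.403 TPM of stim2a, fewer than the 1.31, 1.41 and 1.20 TPM of the -/- label, and for stim2b 0.542, 0.475 and 0.722 TPM compare with 1.52, 1.34 and 1.85 TPM. The names the authors gave to the deposited tables also ran against the labels, since the abbreviation wt stands in those of the libraries labelled -/-. If the labels were exchanged, every direction below would be the opposite, and these files do not settle which is right. All groups are therefore named as libraries labelled +/+ or -/-, and every direction below follows the labels. Replicate 3 was the highest library of its group for each of the 4 CaMKII genes in both groups, at 1.18 to 1.60 times the mean of replicates 1 and 2. No label states whether the pools are separate clutches, so the p-values cover the spread among these 6 samples and nothing wider, and that spread may be technical.

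In the libraries labelled -/-, all 4 CaMKII genes were higher, by 1.59-fold to 2.02-fold, while the calmodulin genes moved less and not together. The calmodulin genes calm2b and calm3b fell, calm1b rose, and calm1a, calm2a and calm3a did not pass the test. Of the 10 genes 5 were called higher, where 30.8% of 20330 tested genes were called higher, and 2 were called lower, where 8.76% were and 39.6% were called in either direction (limma, Benjamini-Hochberg adjusted p under 0.05 over all tested genes). The labelled groups did not overlap for 9 of the 10 genes, against 55.8% of tested genes (39.5% with the libraries labelled -/- above and 16.3% with them below). The median log2 fold change was 0.74 for the CaMKII genes and −0.17 for the calmodulins, against 0.22 over all tested genes. The calls above are for TPM as deposited. After each library was divided by the median ratio of its genes, 5 of the 6 calmodulins were called lower and calm1b was not called. In that fit 21.6% of tested genes were called lower. RNA of whole larvae mixes all tissues, so fewer cells of a type and less RNA per cell cannot be told apart.

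**Figure D1:**
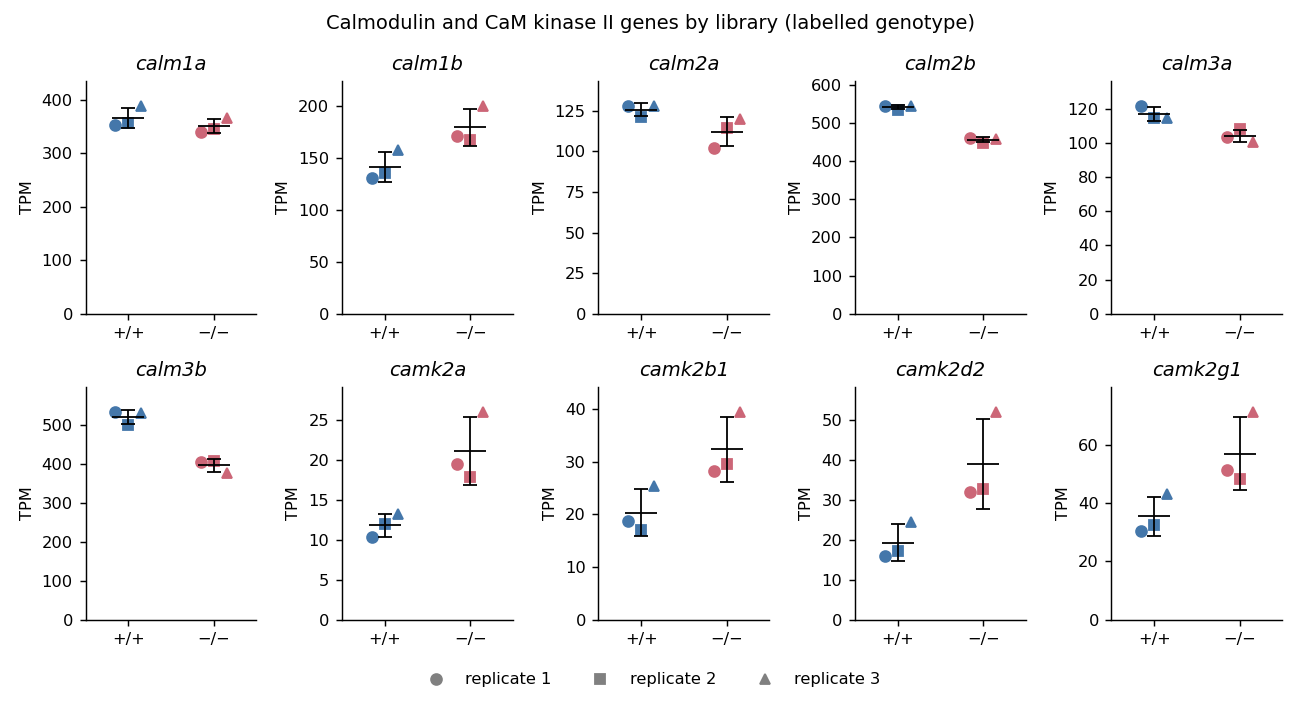
TPM of each calmodulin and CaMKII gene in the 3 libraries labelled +/+ (blue) and the 3 labelled −/− (red), with replicate numbers as symbols, the mean as a bar and the SD as whiskers, on axes that start at 0. The 4 CaMKII genes and calm1b sit higher in every library labelled −/−, calm2a, calm2b, calm3a and calm3b sit lower in every one, and the groups overlap for calm1a.

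The gene calm2b (ENSDARG00000015050.9, chromosome 12, 24952902 to 24958792, plus strand) gave the most calmodulin RNA. Replicates 1, 2 and 3 labelled +/+ measured 544, 535 and 544 TPM, and replicates 1, 2 and 3 labelled -/- measured 460.2, 448 and 459 TPM. The replicates of each group lay within a narrow band and the bands did not touch. The means were 541 ± 5.54 and 456 ± 6.64 TPM (SD, n = 3 each), which is a log2 fold change, computed on log2(TPM + 0.5), of −0.25 with an SE of 0.06 (limma, adjusted p = 0.0228).

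The gene calm3b (ENSDARG00000074057.4, chromosome 21, 26726936 to 26732085, plus strand) had the largest decrease of the 6 calmodulins. Its values were 532, 499.6 and 529 TPM with the label +/+ and 405, 408 and 377 TPM with the label -/-. Every library labelled -/- was below every library labelled +/+, with means of 520.3 ± 18.05 and 397 ± 16.6 TPM (SD, n = 3 each). The log2 fold change was −0.39 ± 0.07 (SE, adjusted p = 0.0115 by limma).

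The gene calm1b (ENSDARG00000034187.9, chromosome 20, 16743056 to 16775258, plus strand) was the calmodulin that rose. Libraries labelled +/+ measured 130.5, 135 and 158 TPM, and libraries labelled -/- 170.5, 167 and 199.6 TPM. Replicate 3 was the highest of each group, and the lowest library labelled -/- was above the highest labelled +/+. The means were 141 ± 14.5 and 179 ± 17.9 TPM (SD, n = 3 each), and limma gave a log2 fold change of 0.34 with an SE of 0.10 (adjusted p = 0.0358).

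The other 3 calmodulin genes missed the threshold. The gene calm1a (ENSDARG00000021811.8, chromosome 17, 26713111 to 26721007, minus strand) measured 353, 356 and 388 TPM with the label +/+ against 339.6, 346 and 366 TPM with the label -/-, and the groups overlapped. Its log2 fold change was −0.06 with a 95% interval from −0.23 to 0.11. The 5' part of calm1a, from 26718648 to 26721007, is shared with nrde2 on the opposite strand, which had a mean of 2.62 TPM over the 6 libraries. The library kit keeps strand, per the labels, but no source used here says whether the quantification did.

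The gene calm2a (ENSDARG00000031427.8, chromosome 13, 8777633 to 8785610, minus strand) stood at 128, 121 and 128 TPM against 102, 115 and 120.0 TPM. The gene calm3a (ENSDARG00000100825.2, chromosome 15, 9234052 to 9272328, minus strand) stood at 122, 114 and 114 TPM against 103, 108 and 101 TPM. For both genes every library labelled -/- lay below every library labelled +/+, by a margin smaller than for calm2b and calm3b. Their log2 fold changes were −0.17 each, with 95% intervals from −0.36 to 0.03 for calm2a and from −0.33 to 0.00 for calm3a (adjusted p = 0.142 and 0.0990 by limma). The exact two-sided permutation test on TPM gave p = 0.4 for calm1a and p = 0.1 for each of the other 9 genes, the smallest that 3 samples against 3 allow.

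The order of the calmodulin genes was nearly fixed. From high to low it was calm2b, calm3b, calm1a, calm1b, calm2a and calm3a in 5 of 6 libraries, and in replicate 1 labelled -/- the last of these changed places. The ranges of neighbours in this order were apart within each group except for calm2a and calm3a, which overlapped. Summed over the 6 genes, calmodulin RNA came to 1810.0, 1761 and 1861 TPM with the label +/+ and to 1581, 1591 and 1622 TPM with the label -/-. These sums did not overlap, and the mean sum of 1598 ± 21.7 TPM (SD, n = 3) under the label -/- was 0.883 of the 1810.6 ± 50.2 TPM (SD, n = 3) under the label +/+.

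Within that sum calm3b held 28.7% ± 0.58 in the libraries labelled +/+ and 24.8% ± 1.35 in those labelled -/- (SD, n = 3 each). The share of calm1b was 7.79% ± 0.637 and 11.2% ± 0.969. The shares of calm1a and calm2b also did not overlap between the groups, with means of 20.2% and 21.9% for calm1a and of 29.9% and 28.5% for calm2b, whereas those of calm2a and calm3a overlapped. A share does not change with the scaling of a library. The calmodulin genes of vertebrates encode an identical protein, but how alike their transcripts are was not tested here. No source used here says what the authors did with reads matching more than 1 gene. The split between paralogs may therefore be less certain than their sum.

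Among the CaMKII genes, camk2a (ENSDARG00000053617.9, chromosome 21, 43897128 to 43952958, minus strand) encodes the alpha subunit, the main form in forebrain neurons of mammals. Replicates 1, 2 and 3 measured 10.3, 12.0 and 13.2 TPM with the label +/+ and 19.6, 17.9 and 26.0 TPM with the label -/-. The groups were clearly apart and replicate 3 was the highest of each. The means were 11.8 ± 1.44 and 21.2 ± 4.30 TPM (SD, n = 3 each), and limma gave a log2 fold change of 0.80 with an SE of 0.16 (adjusted p = 0.0141).

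The gene camk2b1 (ENSDARG00000011065.12, chromosome 5, 20931252 to 21030996, minus strand) encodes a beta subunit, a form that binds actin filaments in neurons of mammals. Its values were 18.7, 17.0 and 25.4 TPM against 28.2, 29.5 and 39.4 TPM. The gap between the groups, from 25.4 to 28.2 TPM, was smaller than the spread within either group. The log2 fold change was 0.66 ± 0.18 (SE, adjusted p = 0.0264 by limma).

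The gene camk2d2 (ENSDARG00000014273.11, chromosome 1, 14163506 to 14234076, minus strand) encodes a delta subunit, the main form in the heart of mammals. It had the largest change of the 10 genes. Libraries labelled +/+ measured 15.9, 17.2 and 24.5 TPM, and libraries labelled -/- 31.9, 32.8 and 51.9 TPM. Replicate 3 labelled -/- was 1.60 times the mean of the other 2 libraries of its group, and replicate 3 labelled +/+ was 1.48 times the mean of its own. The means were 19.2 ± 4.64 and 38.9 ± 11.3 TPM (SD, n = 3 each), and limma gave a log2 fold change of 0.99 with an SE of 0.22 (adjusted p = 0.0178).

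The gene camk2g1 (ENSDARG00000071395.8, chromosome 12, 35345830 to 35505610, minus strand) encodes a gamma subunit, a form found in many tissues of mammals, and had the highest level of the 4. Its values were 30.6, 32.5 and 43.1 TPM against 51.2, 48.1 and 71.1 TPM, groups that did not overlap. The log2 fold change was 0.67 ± 0.18 (SE, adjusted p = 0.0254 by limma). In every library camk2g1 was the highest and camk2a the lowest of the 4. The neighbours camk2b1 and camk2d2 overlapped in both groups, with camk2d2 above camk2b1 in 4 of 6 libraries, and in the libraries labelled -/- the ranges of camk2g1 and camk2d2 overlapped too.

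The 3 further CaMKII paralogs did not move as a block. The paralog camk2d1, the other delta gene, was the most abundant CaMKII gene with the label +/+, at 58.3, 59.5 and 53.7 TPM, and measured 45.6, 48.5 and 54.8 TPM with the label -/-. These values overlapped and the log2 fold change of −0.20 was not called (adjusted p = 0.117 by limma). The low paralog camk2b2 rose, from 1.47, 2.84 and 3.20 TPM to 3.92, 4.60 and 11.2 TPM (log2 fold change 1.15 ± 0.38, SE, adjusted p = 0.0466), with replicate 3 labelled -/- far above the rest. The paralog camk2g2 stood at 10.2, 10.8 and 14.1 TPM against 13.7, 12.7 and 16.5 TPM (adjusted p = 0.158 by limma, 0.0197 with the replicate number as a block, and 0.399 with the block and rescaling).

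The mix of CaMKII genes therefore differed between the labelled groups. Within each library camk2d1 was 3.66, 3.45 and 2.19 times as abundant as camk2d2 under the label +/+ and 1.43, 1.48 and 1.06 times under the label -/-, ranges that did not overlap. Of the summed TPM of all 7 CaMKII genes, camk2d1 held 36.5% ± 5.401 in the libraries labelled +/+ and 22.9% ± 2.43 in those labelled -/- (SD, n = 3 each), and camk2d2 held 12.0% ± 1.57 and 17.5% ± 1.45. The sum of the 7 genes was 158 ± 16.8 TPM with the label +/+ and 219.8 ± 44.4 TPM with the label -/-, and that of the 4 genes 86.8 ± 16.9 and 149 ± 34.0 TPM (SD, n = 3 each; both sums are given without a test). Calmodulin RNA, summed, was 24.0, 22.4 and 17.5 times the summed TPM of the 4 CaMKII genes in the libraries labelled +/+ and 12.1, 12.4 and 8.61 times in those labelled -/-.

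**Figure D2:**
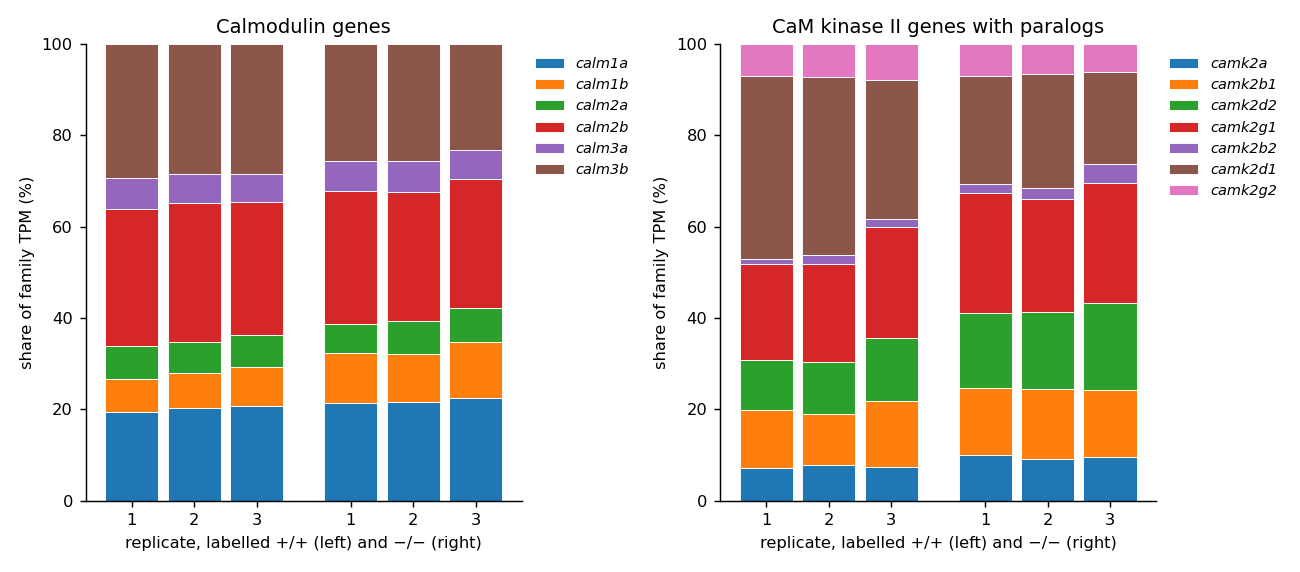
Share of the summed TPM of the 6 calmodulin genes (left panel) and of 7 CaMKII genes including paralogs (right panel) held by each gene, in percent, with 1 stacked bar per library and the libraries labelled +/+ on the left of each panel. The share of calm3b is smaller and that of calm1b larger in the libraries labelled −/−, and the share of camk2d1 has a mean of 36.5% with the label +/+ and 22.9% with the label −/−.

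The calls of calm1a, calm1b, calm2a and calm3a depended on how the libraries were scaled. Those of calm2b, calm3b and the 4 CaMKII genes among the 10 did not. Dividing each library by the median ratio of its genes moved the median over all tested genes from a log2 fold change of 0.22 to 0.02. All 4 CaMKII genes stayed higher, with log2 fold changes of 0.44 to 0.76 and adjusted p of 0.00848 to 0.0284 by limma. Under this scaling calm1a (−0.29), calm2a (−0.39), calm2b (−0.47), calm3a (−0.39) and calm3b (−0.62) were all called lower, and calm1b lost its call (log2 fold change 0.12, adjusted p = 0.262). The counts became 4 higher and 5 lower of 10, where 22.8% and 21.6% of tested genes were called higher and lower, 44.4% in all. The paralog camk2d1 was then also called lower (log2 fold change −0.43, adjusted p = 0.0192). The direction of each of the 10 genes was the same under both scalings. With the replicate number as a block the counts stayed at 5 higher and 2 lower, where 45.6% and 13.3% of tested genes were called higher and lower and 58.8% in either direction. With the block and the rescaling together they were 4 and 5, where the shares were 29.7% and 28% and 57.7% in either direction.

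**Figure D3:**
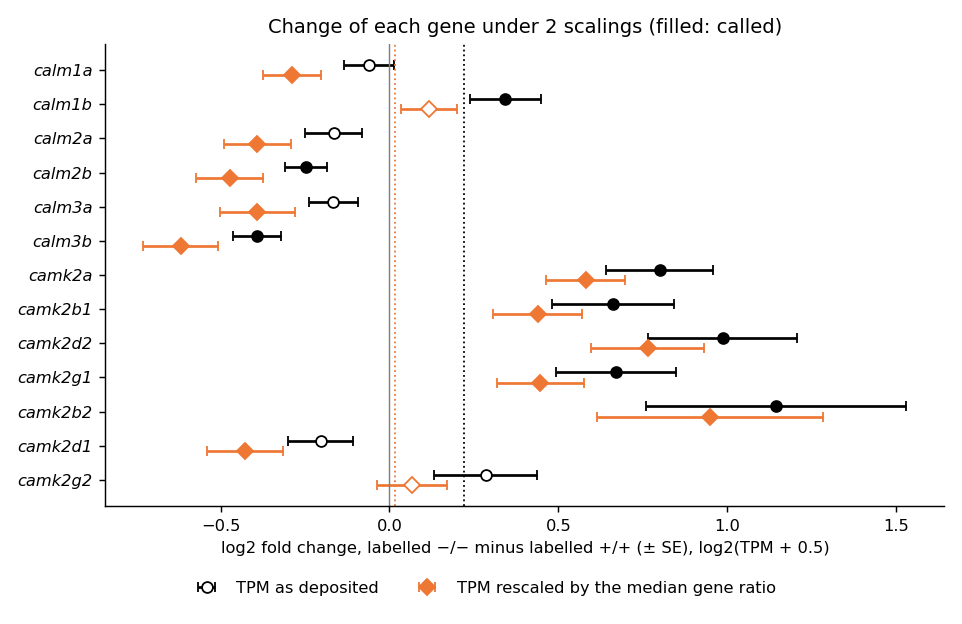
Log2 fold change of the 10 genes and of 3 CaMKII paralogs (libraries labelled −/− minus labelled +/+, on the log2(TPM + 0.5) scale, with SE as whiskers), for TPM as deposited (black circles) and TPM rescaled by the median gene ratio (orange diamonds); filled symbols were called at an adjusted p under 0.05 and dotted lines mark the median of all tested genes. The rescaling shifts every gene down by about the same amount, which ends the call of calm1b and adds calm1a, calm2a, calm3a and camk2d1 to the genes called lower.

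The calls also rested on single libraries. Without replicate 1 or without replicate 2 labelled +/+, limma called none of the 10 genes in either direction. In these fits 2.59% and 1.76% of tested genes were called higher and 1.79% and 1.48% lower. At an unadjusted p under 0.05, 5 were higher and 2 lower in each of these fits. Without replicate 1 labelled -/- 4 were called higher and 1 lower, against 15.8% and 5.94% of tested genes, and calm1b and calm2b lost their calls. Without replicate 3 labelled -/- the counts were 3 and 2, against 16.3% and 5.73%, and calm1b and camk2b1 lost their calls. They were 5 and 2 without replicate 3 labelled +/+ (39.5% and 8.12% of tested genes), without replicate 2 labelled -/- (31.9% and 7.2%), and without replicate 3 of both groups, a choice made after the data were seen that leaves 2 libraries each (41.9% and 9.5%). Over the fits without 1 library the log2 fold change of camk2d2 lay between 0.76 and 1.17, that of camk2a between 0.64 and 0.91, and that of calm3b between −0.42 and −0.36.

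Most markers of neurons moved with the 4 CaMKII genes. Of 14 neuron markers 12 were called higher, where 30.8% of all tested genes were. The median log2 fold change of the markers was 1.03, against 0.22 over all tested genes. None of the 14 markers was at 0 in any library. Their summed level was 739, 752 and 987 TPM with the label +/+ and 1208, 1189 and 1762 TPM with the label -/-. The exceptions were snap25a (adjusted p = 0.680) and stmn2a (adjusted p = 0.0659 by limma). Under the label -/- the mean sum of the 4 CaMKII genes was 1.72 times as high. That of all 7 CaMKII genes was 1.39 times as high, below the 1.68 times of the marker sum. Per 1000 TPM of neuron markers, the 4 CaMKII genes together measured 102, 105 and 108 TPM with the label +/+ and 108, 108 and 107 TPM with the label -/-, and the groups overlapped. On this scale camk2a, camk2b1 and camk2g1 overlapped between the groups. The exception was camk2d2, at 21.6, 22.9 and 24.85 TPM per 1000 TPM of markers under the label +/+ and at 26.4, 27.6 and 29.5 under the label -/-. Abundant markers weigh most in the marker sum, among them snap25a, with means of 174 TPM (+/+) and 168 TPM (-/-). The log2 fold change of camk2d2, 0.99, was below the marker median of 1.03. Those of camk2a (0.80), camk2b1 (0.66) and camk2g1 (0.67) were further below it. Both the exception of camk2d2 and the overlap of the other CaMKII genes on this scale may therefore depend on that weighting. All 6 calmodulins were lower per 1000 TPM of markers, calm1b with a ratio of group means of 0.765 and the other 5 with ratios of 0.464 to 0.58. No calmodulin rose as much as the marker sum, and calm1b, which rose most, did so 1.27-fold. Lower values on this scale were therefore bound to follow from the rise of the markers.

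**Figure D4:**
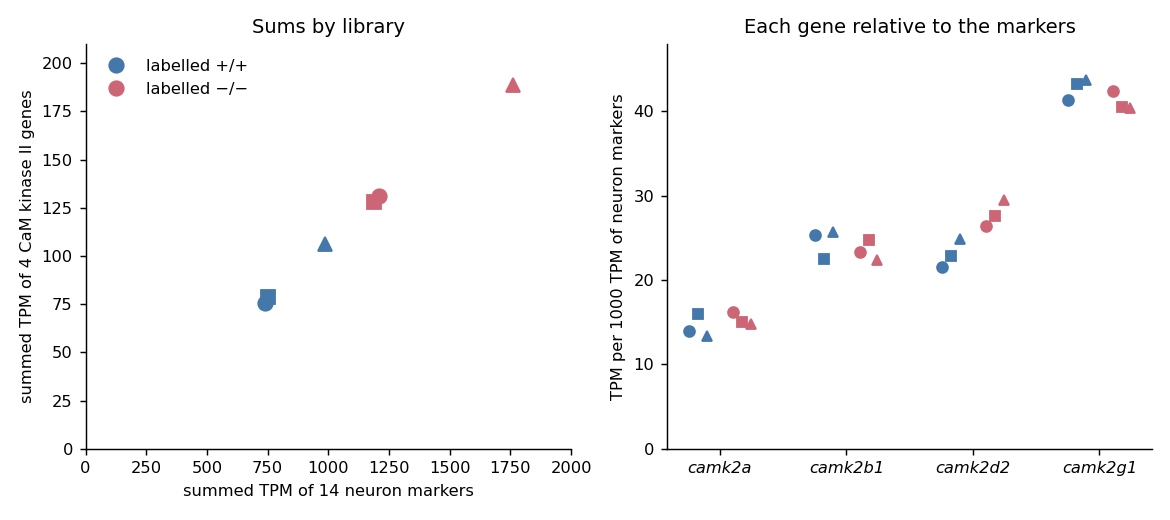
Left, summed TPM of the 4 CaMKII genes against the summed TPM of 14 neuron markers, 1 point per library, with colours for the labelled genotype and symbols for the replicate number; right, each CaMKII gene in TPM per 1000 TPM of neuron markers. The sums lie near 1 line through all 6 libraries, and on the right the groups overlap for camk2a, camk2b1 and camk2g1 but not for camk2d2. The most abundant markers weigh most in the marker sum. The 3 further CaMKII paralogs, among them camk2d1, are left out. With them the ratio of mean sums (−/− over +/+) was 1.39, against 1.68 for the markers.

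The other marker lists differed among themselves, and their counts stand against 30.8% of all tested genes called higher and 8.76% called lower. Of 9 photoreceptor genes 6 were called higher, and the ratio of their mean sums was 2.37, above the 1.68 of the neuron markers. A single rho gene (ENSDARG00000002193.10) held 346 of 929 TPM of the mean sum under the label +/+ and 1313 of 2199 TPM under the label -/-. The entry rho also matched ENSDARG00000103574.2, which had only a family symbol, and ENSDARG00000111860.1. Their means were 6.21 and 6.51 TPM with the label +/+ and 6.93 and 7.39 TPM with the label -/-. Neither was called, and both count among the 9. The median log2 fold change of the photoreceptor genes was 0.74, below the 1.03 of the neuron markers. The photoreceptor sum ranged from 723 to 1161 TPM in the libraries labelled +/+ and from 1779 to 2772 TPM in those labelled -/-. Of 9 skeletal muscle genes 3 were called higher, with sums of 29910.1 to 32362 TPM and of 31926 to 34650.2 TPM, a share near that of all genes. The ratio of the muscle sums was 1.07 and turned to 0.916 once the libraries were rescaled. Rescaling also lowered the ratios of the other marker sums. They became 1.43 for neurons, 2.03 for photoreceptors, 0.798 for heart (from 0.937) and 0.753 for epidermis (from 0.883). Of 8 heart genes 1 was called lower, with sums of 172 to 179 TPM and of 155 to 172 TPM, and of 5 epidermis genes 2 were called lower, with sums of 5027 to 5455 TPM and of 4326 to 5065 TPM. The heart entry myh6 matched genes on chromosomes 2, 20 and 24. Those on chromosomes 2 and 24 had only a family symbol, so their place among heart genes is not certain. No gene of these lists was at 0 in any library. The part of these tissues in the calmodulin and CaMKII results was not tested.

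The change also moved with the length of the genes in the genome. When the 20330 tested genes were put into 5 equal classes by the span from start to end, a split chosen after the data were seen, the median log2 fold change was 0.01 in the class of the shortest genes, up to 5.98 kb, and 0.49 in the class of the longest, from 46.6 kb. In the class of the longest genes 50.7% were called higher and 1.67% lower, and in that of the shortest 19.7% and 16.3%. All 4 CaMKII genes, with spans of 55.8 to 159.8 kb, were in the class of the longest genes, and their log2 fold changes of 0.66 to 0.99 lay above its median. The genes that fell, calm2b and calm3b, span 5.89 and 5.15 kb and were in the class of the shortest. The paralog camk2d1 spans 154 kb and was not called, and calm3a spans 38.3 kb with a log2 fold change of −0.17 in a class with a median of 0.32. The part of gene span in these results was not tested.

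**Figure D5:**
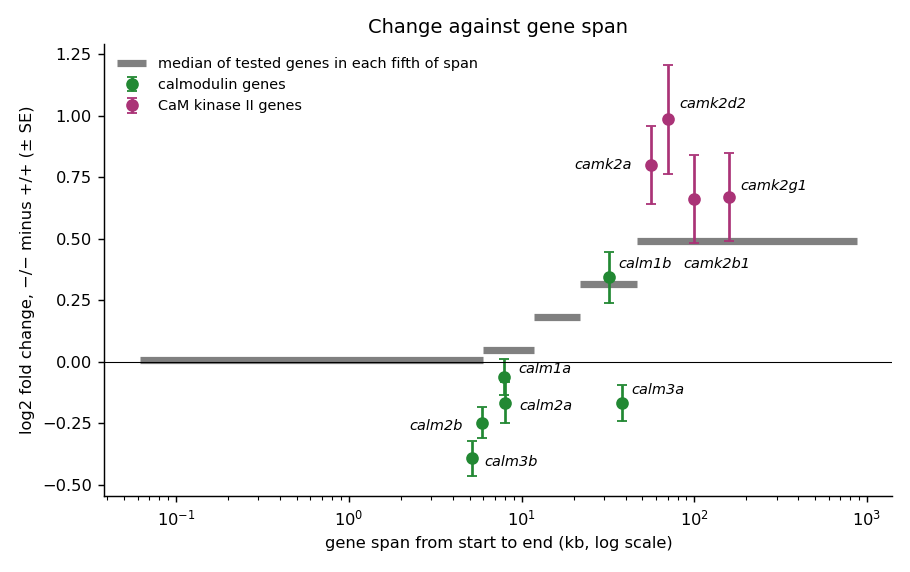
Log2 fold change (libraries labelled −/− minus labelled +/+, with SE as whiskers) against gene span in kb on a log axis for the 6 calmodulin genes (green) and the 4 CaMKII genes (purple); grey bars give the median of all tested genes in 5 equal classes of span. The medians go from 0.01 to 0.49 with span, the CaMKII genes lie above the median of the longest class, and 5 calmodulins lie below the median of their class.

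The position of camk2d2 differed from that of the other members. It ends 233 kb before stim2a on chromosome 1, and no other of the 10 genes lies on chromosome 1 or on chromosome 7, which holds stim2b. The paralog camk2d1 lies on chromosome 7, 4.44 Mb from stim2b. Of 20 tested genes within 1 Mb of stim2a, 13 were called higher and 2 lower, with a median log2 fold change of 0.51. These counts include camk2d2, which was called higher, and leave out stim2a itself. Of 13 tested genes within 1 Mb of stim2b, 5 were called higher and 0 lower by limma, with a median of 0.31. Over all tested genes 30.8% were called higher and 8.76% lower, with a median of 0.22. The genotype and the haplotype around the targeted genes cannot be told apart in this design.

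Genes that act with calmodulin and CaMKII were taken from a list of 53 genes, of which 48 passed the filter. Of these 25 were called higher and 5 lower, with a median log2 fold change of 0.51, where 30.8% and 8.76% of all tested genes were called and the median was 0.22. After rescaling by the median gene ratio the counts were 21 and 9, where 22.8% and 21.6% of all genes were called, and without replicate 1 or replicate 2 labelled +/+ a single gene was called higher in each fit and none lower (at an unadjusted p under 0.05, 21 higher and 5 lower without replicate 1, and 24 and 5 without replicate 2). Without replicate 1 labelled -/- 14 were called higher and 3 lower (15.8% and 5.94% of all genes), and without replicate 3 labelled -/- 16 and 5 (16.3% and 5.73%). From each group of this list up to 3 genes with the highest mean TPM are named, and from the kinase cascade also those whose call ended after rescaling. The gene camta1a, among the 25 called higher, is named too, since it passed the filter only through the libraries labelled -/-.

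The inhibitor genes of CaMKII, whose small proteins bind the active kinase and block it, went both ways. The gene camk2n2 fell, from a mean of 42.1 ± 2.18 TPM to 32.4 ± 3.55 TPM (SD, n = 3 per group; adjusted p = 0.0273 by limma). The lower gene camk2n1b rose, from 2.40 ± 0.398 to 3.59 ± 0.119 TPM (adjusted p = 0.0268), and lost its call after rescaling (0.0540) but not with the replicate block added to the rescaling (0.0454). The values of camk2n1a were 21.5 ± 2.46 and 24.5 ± 3.13 TPM (SD, n = 3 each, adjusted p = 0.254).

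Of 12 genes of the calmodulin kinase cascade 8 were called higher, where 30.8% of all tested genes were. The 4 others missed the threshold. After rescaling 5 of the 12 were called higher and 1 lower, where 22.8% and 21.6% of all tested genes were. The genes camk1b, camk1db and camkva were then no longer called. The gene camkk2, whose kinase activates CaM kinases I and IV, rose from a mean of 9.76 ± 1.98 TPM to 19.8 ± 7.63 TPM (SD, n = 3 per group; adjusted p = 0.0258 by limma). The gene camk1ga, a CaM kinase I gene, rose from 8.98 ± 1.156 to 16.9 ± 3.85 TPM (adjusted p = 0.0142). The gene camk4, whose kinase acts on transcription factors in the nucleus, stood at 14.3 ± 0.62 and 13.1 ± 0.398 TPM (adjusted p = 0.299), and after rescaling it was called lower (0.0162).

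Small proteins that hold calmodulin when calcium is low also differed among themselves. The growth cone gene gap43 rose from a mean of 45.3 ± 8.15 TPM to 74.7 ± 18.1 TPM (SD, n = 3 per group; adjusted p = 0.0243 by limma), while pcp4b fell from 105 ± 5.72 to 85.9 ± 5.02 TPM (adjusted p = 0.0286). Its paralog pcp4a stood at 52.7 ± 6.62 and 62.0 ± 3.73 TPM (adjusted p = 0.103, 0.0205 with the replicate block, and 0.846 with the block and rescaling).

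Of 16 tested genes of enzymes and transcription factors that calmodulin regulates, 8 were called higher and 2 lower. Over all tested genes 30.8% and 8.76% were. After rescaling 8 of the 16 were called higher and 4 lower, where 22.8% and 21.6% of all tested genes were. One gene called higher in both fits, camta1a, was under 1 TPM in every library labelled +/+ (0.342, 0.917 and 0.678 TPM). It passed the filter only through the libraries labelled -/- (2.30, 2.48 and 4.47 TPM), so its call is no separate evidence of a rise. The kinase gene dapk2b fell from a mean of 11.8 ± 1.21 TPM to 8.01 ± 0.746 TPM (SD, n = 3 per group; adjusted p = 0.0188 by limma). The gene eef2k, whose kinase slows protein synthesis by phosphorylating an elongation factor, stood at 70.6 ± 2.06 and 75.1 ± 0.98 TPM (adjusted p = 0.339). The myosin light chain kinase gene mylk4a stood at 24.6 ± 1.67 and 19.9 ± 2.36 TPM (adjusted p = 0.0601, 0.00953 with the replicate block and 0.00488 after rescaling). The calmodulin-like gene calml4a fell from 31.9 ± 1.73 to 25.9 ± 2.63 TPM (adjusted p = 0.0461), and camkmt, named for the enzyme that methylates calmodulin, stood at 1.26 ± 0.1001 and 1.51 ± 0.0586 TPM (adjusted p = 0.209). The calmodulin-like gene calml4b, with means of 0.0904 and 0.0318 TPM, failed the filter and was not tested.

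Of 8 genes of known CaMKII substrates or related targets 6 were called higher, where 30.8% of all tested genes were. After rescaling 6 were called higher too, where 22.8% of all tested genes were. The synapsin gene syn2a, of a synaptic vesicle protein, rose from a mean of 27.5 ± 6.19 TPM to 47.1 ± 10.9 TPM (SD, n = 3 per group; adjusted p = 0.0230 by limma). The transcription factor gene creb1a rose from 19.4 ± 3.27 to 27.9 ± 3.55 TPM (adjusted p = 0.0276), and its paralog creb1b stood at 15.8 ± 1.71 and 17.8 ± 2.03 TPM (adjusted p = 0.291).

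The authors' deposited table of their own test does not state its direction. In that table the log2 fold change was −1.73 for stim2a and −1.19 for stim2b, and for each of the 10 genes its sign was opposite to that of the TPM. The authors' deposited table gave −0.63 ± 0.12 (SE) for camk2a, −0.54 ± 0.15 for camk2b1, −0.78 ± 0.17 for camk2d2 and −0.36 ± 0.12 for camk2g1, each with an adjusted p of at most 0.0272. The authors' deposited table gave 0.25 for calm1a, 0.35 for calm2a, 0.44 for calm2b, 0.36 for calm3a and 0.57 for calm3b, with adjusted p between 1.61e-05 and 0.0350. For calm1b the authors' deposited table had −0.15 ± 0.09 (SE) with an adjusted p of 0.316. Of the 10 genes, calm1b alone missed an adjusted p under 0.05 there, as in the fit rescaled by the median gene ratio.

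The likeness of other genes was read from 11975 genes with a symbol and a mean of at least 5 TPM. Genes with only a family symbol were left out. Among the 11975, those whose log2(TPM + 0.5) followed calm2b most closely over the 6 libraries were msrb1b, si:ch211-133n4.4, dusp11 and cryzl1, with Pearson r from 0.996 to 0.997. Those closest to camk2g1 were hnrnpul1l, usp12a, col4a2 and map6b, with Pearson r from 0.9995 to 0.9997. These r describe 6 libraries that fall into 2 labelled groups and share their scaling.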

How the data were processed

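Per the labels' protocols, polyadenylated RNA of 6 pools of larvae was made into stranded libraries and sequenced as paired reads. The deposited tables hold coverage, a mean signal per base, FPKM, scaled for length and depth, and TPM, and per the file headers follow StringTie's layout. STAR 2.5.3a, StringTie 1.3.3b and DESeq2 1.16.1 stand in the submitters' processing notes, which give no roles and list 2 builds, danRer11 (zebrafish) and hg38 (human). Coordinates are copied from the deposited tables. The authors' deposited table of their own test has the column names of DESeq2: a mean signal over all libraries, log2 values (the fold change and its standard error), a test score and p-values.

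Without counts per sample in these files, no count test was run. Rows of 1 gene were summed, and limma 3.58.1 in R 4.3.3 (lmFit, eBayes with a trend) was run on log2(TPM + 0.5) on the 20330 genes that reached 1 TPM in 3 or more samples. P-values were adjusted by Benjamini-Hochberg over these genes, and an adjusted p under 0.05 is a call. Fold changes are libraries labelled -/- minus libraries labelled +/+ and understate the change of low genes. The fit was also run on simulated data with noise independent between genes and libraries. Such data hold no shift shared by most genes, so that run says nothing about how the calls depend on scaling. Tables were made with Python 3.11.15, pandas 2.3.3 and SciPy 1.17.1. Paralogs were named from the RefSeq gene table of assembly GRCz12tu where 1 symbol matched on the same chromosome. All members were matched; in the list of related genes nrgnb, pde1b and pde1ca found no gene, in the marker lists mylpfa, mylpfb, tnni2a.4 and vmhc found none, and some entries matched several genes.

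Named genes were all members and the targeted genes, the 3 most abundant genes of each group of the related list, and the 4 genes most like calm2b and camk2g1. Beyond this rule camk1b, camk1db and camkva are named because their calls ended after rescaling. The genes camta1a and nrde2 and some markers are named too. The members and lists were chosen with earlier results of these data known. Equal replicate numbers were checked as pairs: deviations from the group means correlated at 0.25, 0.19 and 0.48 for replicates 1, 2 and 3. These pass a limit of 0.1, although the labels record nothing that equal numbers share, and the closest match of replicate 1 labelled +/+ was replicate 2 labelled -/- (0.29). Alternatives were other pseudocounts (0.1 and 1), filters and scalings, FPKM, the replicate block and each library left out.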

Additional observations from a re-analysis of the deposited data

How the results depend on the processing

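The direction of all 10 genes was the same in every alternative run. With 5 calmodulins and CaMKII genes called higher and 2 lower in the reported fit, 5 were lower after rescaling by the median gene ratio, with or without the replicate block, and 4 with FPKM. With a mean of at least 5 TPM, where fewer genes are tested, 13 of 30 related genes were higher. Of 48 related genes 9 (rescaled, with or without the block) or 8 (quantile scaling) were lower. Over all tested genes 3919 of 12767 were higher with a mean of at least 5 TPM, against 6265 of 20330 in the reported fit. With quantile scaling 4161 of 20330 were higher. Lower among 20330 tested genes were 4388 (rescaled, 21.6%), 4229 (quantile), 2837 (FPKM), 2695 (replicate block, 13.3%) and 5699 (block and rescaling, 28%). The targeted genes were not tested with a mean of at least 5 TPM (0 calls). The log2 ratio of summed calmodulin TPM, −0.18, became −0.41 after rescaling and −0.28 with FPKM. Leaving out 1 library in turn gave 0 to 5 members higher and 0 to 2 lower, 1 to 28 related genes higher and 0 to 5 lower, and 357 to 8026 of all genes higher and 300 to 1651 lower, with summed log2 ratios of −0.20 to −0.16 (calmodulins) and 0.60 to 0.93 (CaMKII). With no filter on low values calm1b missed the threshold (adjusted p = 0.0561). On TPM as deposited the replicate block changed the calls of camk2g2, pcp4a and mylk4a and no other call among the members and named genes, and on rescaled values it added those of camk2n1b and camkva. Other causes of these shifts were not tested. TPM keep no depth, so no counting interval can be given.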
